A study of Mus musculus with 6 samples.

Results

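The 10 genes described here are Srxn1, Prdx1, Txnrd1, Gclc, Gclm, Gsr, Hmox1, Nqo1, Nfe2l2 and Keap1, a group of NRF2 and thiol redox genes. They were taken by symbol from a table of 54532 mouse genes, and all 10 symbols were found, each in 1 row. The group was selected on the comparison of si-circRtn4 with si-NC libraries itself, in which Srxn1 was among the genes with the largest increase. The levels and fold changes of these 10 genes are therefore given as a description, with no p-value.

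NRF2, encoded by Nfe2l2, is a transcription factor that KEAP1 binds and hands over to ubiquitination in resting cells. When electrophiles or peroxides modify cysteines of KEAP1, NRF2 escapes degradation, enters the nucleus and, paired with a small MAF protein, binds antioxidant response elements (AREs) near genes for glutathione synthesis, thioredoxin reduction, quinone detoxification and heme breakdown. In neural cells these enzymes are known as a defence of neurons and glia against oxidative stress.

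RNA was sequenced from N2a (Neuro2A) cells, a mouse neuroblastoma line kept in MEM with fetal bovine serum and labelled with the strain C57BL/6, in 3 libraries that received si-NC, a control siRNA, and 3 that received si-circRtn4, an siRNA against the circular RNA of the Rtn4 gene. All 6 libraries are of the same line and carry an siRNA, so untransfected cells are not part of the comparison, and neither the labels nor the methods say whether replicates were separate cultures. The methods state that transfected N2a cells were moved a day later into a low-serum medium with retinoic acid to differentiate, but do not tie this step to the sequenced libraries by name. P-values measure the spread between these libraries, which may be technical. Levels are fragments per kilobase of gene length, scaled to library size (FPKM). For Gclm, Txnrd1, Gsr, Nfe2l2 and Keap1 that length equals all annotated exon bases, rather than the length of an expressed transcript. Levels of different genes, their order and their ratios can therefore be set side by side only roughly.

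The libraries held 13541198 to 15122063 reads on genes, as recovered from FPKM and gene length. Rtn4, the host gene of the targeted circle, read 61.0, 66.8 and 69.8 FPKM in si-NC replicates 1 to 3, against 50.1, 56.7 and 62.7 FPKM in si-circRtn4 replicates 1 to 3, a log2 difference of -0.22 (standard error 0.10, adjusted p = 0.216 from limma, and 0.0447 with replicate number as a block). FPKM adds linear and circular RNA if the libraries kept circles, and holds linear RNA alone if they did not. The paper does not describe the library preparation, and in either case the knockdown itself cannot be read from FPKM. The neuroblastoma markers Tubb3, Hand2 and Gata2 were each above 20 FPKM in every library. The summed level of the neuroblastoma list was 1291 to 1372 FPKM in si-NC and 813.7 to 1105 FPKM in si-circRtn4 libraries. Fibroblast, astrocyte, leukocyte and endothelial markers each summed to less than 1 FPKM in every library, with 0.301 to 0.5033 FPKM in si-NC and 0.5085 to 0.7859 FPKM in si-circRtn4 libraries for the 6 fibroblast genes. The 5 oligodendrocyte markers summed to 3.816 to 5.678 FPKM, most of it Mbp. The part of these markers in the results below was not tested.

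For 7 of the 10 genes every si-circRtn4 library lay above every si-NC library, and for Prdx1, Gsr and Keap1 the groups overlapped. In the limma fit across the 12749 genes averaging 1 FPKM or more, 3 of the 10 (Srxn1, Hmox1 and Txnrd1) were higher at an adjusted p under 0.05 and 0 were lower. With replicate number as a block, 7 were higher, and 1185 of the 12749 genes tested were higher and 1243 lower. Hmox1 was not past the threshold without si-NC replicate 2 or without si-circRtn4 replicate 1, nor were Hmox1 and Srxn1 without the filter on low values. At that threshold, in the fit without a block, 4.36% of all genes tested were higher and 4.82% were lower. Every si-circRtn4 library lay above every si-NC library for 16.2% of genes, and below for 15.5%. Since this comparison was used to choose the genes, nothing is read from these counts. The median log2 difference of the 10 was 0.32, beside 0.00 for all genes tested.

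**Figure D1:**
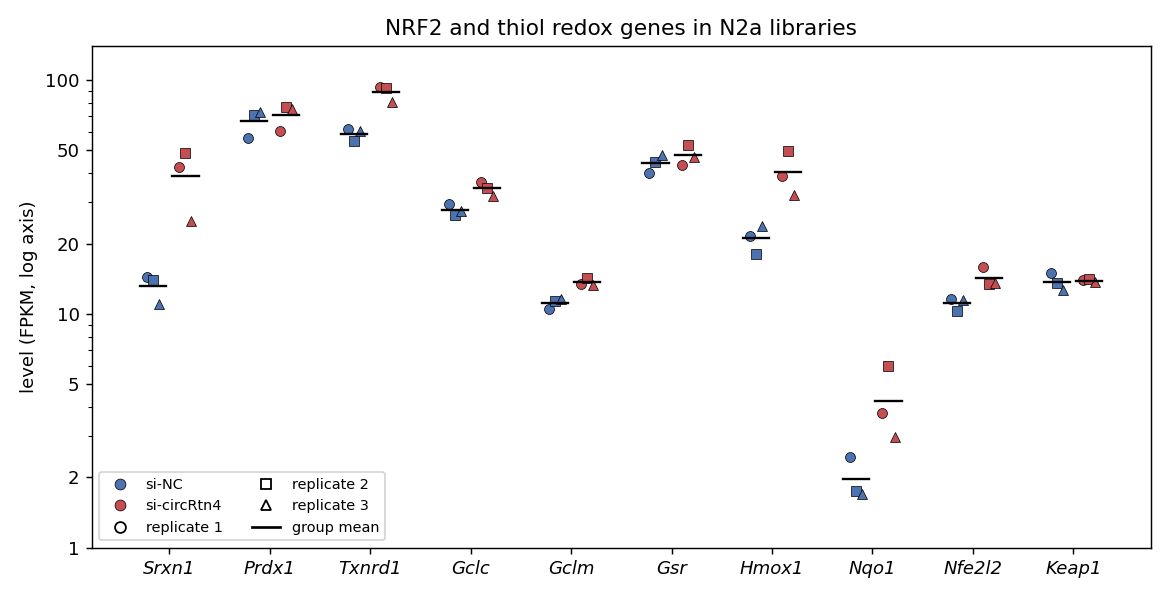
Level of each gene in FPKM on a log axis, with 1 point per library (blue, si-NC; red, si-circRtn4; symbols mark the replicate number) and a black line at the mean of 3 libraries. The points of both groups lie apart for 7 genes and overlap for Prdx1, Gsr and Keap1.

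Srxn1 (ENSMUSG00000032802, chromosome 2, 152105516 to 152111376, plus strand in GRCm38) encodes sulfiredoxin, which uses ATP to restore peroxiredoxins whose active-site cysteine has been over-oxidized to sulfinic acid. It was at 14.4, 13.9 and 11.02 FPKM in si-NC replicates 1, 2 and 3 and at 42.6, 48.6 and 24.9 FPKM in si-circRtn4 replicates 1, 2 and 3. All si-circRtn4 libraries were above all si-NC libraries, and replicate 3 was the lowest in both groups. The means were 13.1 ± 1.84 and 38.7 ± 12.3 FPKM (SD, n = 3 each), which is 2.95-fold, with 435 to 2134 reads per library. On the log2(FPKM + 1) scale the difference was 1.45 (standard error 0.23), number 7 in the order of increases among the 12749 genes tested. That order holds for a pseudocount of 1, since Osgin1 and Sptb, below Srxn1 here, were above it with one of 0.1. Leaving out si-circRtn4 replicate 3 gave 1.73, and leaving out si-circRtn4 replicate 2 gave 1.26.

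The promoter window of Srxn1 in RefSeq (GRCm38.p6, chr2:152105274-152105573, plus strand, 250 bases before to 50 after the start) is shown because its gene had the largest difference of the 10. Capitals mark matches to the AP-1 site TGANTCA and to the ARE core TGACNNNGC, each searched on both strands.
Srxn1: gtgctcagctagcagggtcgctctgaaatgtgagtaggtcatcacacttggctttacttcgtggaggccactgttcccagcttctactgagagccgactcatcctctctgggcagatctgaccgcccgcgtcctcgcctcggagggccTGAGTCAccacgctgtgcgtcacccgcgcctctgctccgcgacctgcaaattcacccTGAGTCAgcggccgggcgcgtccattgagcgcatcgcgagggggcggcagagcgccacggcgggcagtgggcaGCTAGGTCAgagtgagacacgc
It held the AP-1 letters at 102 and 45 bases before the start, each on both strands, and the ARE core on the minus strand from 28 bases after it. Of all 32851 promoter windows of this length, 12.4% held the ARE core and 7.81% the AP-1 site. Among the 11335 windows of tested genes these shares were 14.4% and 4.72%.

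Prdx1 (ENSMUSG00000028691, chromosome 4, 116685544 to 116700822, plus strand), a cytosolic peroxiredoxin that reduces hydrogen peroxide and is a substrate of sulfiredoxin, had the highest mean FPKM of the 10 genes in si-NC libraries. It measured 56.3, 71.1 and 73.1 FPKM after si-NC and 60.4, 76.8 and 75.1 FPKM after si-circRtn4. The groups overlapped, and replicate 1 was the lowest in each. The means were 66.8 ± 9.19 and 70.8 ± 9.003 FPKM (SD, n = 3 each), a log2 difference of 0.08 (standard error 0.13), which turned to -0.03 without si-NC replicate 1. Within a library the level of Srxn1 was 0.151 to 0.257 times that of Prdx1 in si-NC and 0.331 to 0.705 times in si-circRtn4. This is a ratio of RNA levels. With Prdx1 little changed, it mostly restates the increase of Srxn1 that was known when the genes were chosen.

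The window of Prdx1 (chr4:116685349-116685648, plus strand) is shown beside that of Srxn1 because it held the same motifs while the levels of its gene overlapped between the groups.
Prdx1: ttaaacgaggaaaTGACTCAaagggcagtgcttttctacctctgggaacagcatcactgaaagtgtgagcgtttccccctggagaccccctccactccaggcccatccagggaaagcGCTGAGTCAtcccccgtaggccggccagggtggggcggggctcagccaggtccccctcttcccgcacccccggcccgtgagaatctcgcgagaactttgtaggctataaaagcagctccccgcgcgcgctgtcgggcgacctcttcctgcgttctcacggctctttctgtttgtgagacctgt
One AP-1 match lay 237 bases before the start, and the other, 131 bases before it, lay within an ARE core on the minus strand, so that these letters count for both motifs.

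Txnrd1 (ENSMUSG00000020250, chromosome 10, 82833951 to 82897712, plus strand), the cytosolic selenoenzyme that reduces thioredoxin with NADPH, read 61.6, 54.8 and 60.6 FPKM in si-NC replicates 1 to 3, against 93.3, 92.2 and 80.7 FPKM in si-circRtn4 replicates 1 to 3. The groups lay clearly apart, and si-circRtn4 replicate 3 was again the lowest of its group. The means of 59.0 ± 3.65 and 88.7 ± 6.997 FPKM (SD, n = 3 each) differed 1.504-fold, a log2 difference of 0.58 (standard error 0.09), on 5601 to 10171 reads. In mean FPKM it passed Prdx1 to become the highest of the 10 in si-circRtn4 libraries. One of its 3 promoter windows held an ARE core, on the minus strand from 92 bases before that start (chr10:82859103-82859132).
Txnrd1: actggatttttGCTTTGTCAttctgacacg

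Glutamate-cysteine ligase makes the first and rate-limiting bond of glutathione, with Gclc as its catalytic and Gclm as its modifier subunit. Gclc (ENSMUSG00000032350, chromosome 9, 77754535 to 77794485, plus strand) measured 29.6, 26.4 and 27.4 FPKM after si-NC and 36.6, 34.6 and 32.1 FPKM after si-circRtn4. Gclm (ENSMUSG00000028124, chromosome 3, 122245557 to 122270732, plus strand) was at 10.5, 11.4 and 11.6 FPKM and at 13.5, 14.3 and 13.3 FPKM. For both subunits the groups lay apart, by less than for Srxn1 or Txnrd1. Gclc averaged 27.8 ± 1.62 and 34.4 ± 2.27 FPKM (SD, n = 3 each), a log2 difference of 0.30 (standard error 0.08). Gclm averaged 11.2 ± 0.554 and 13.7 ± 0.510 FPKM (SD, n = 3 each), a log2 difference of 0.27 (standard error 0.07). The ratio of the modifier to the catalytic subunit was 0.404 ± 0.0409 in si-NC and 0.398 ± 0.0263 in si-circRtn4 libraries (SD, n = 3 each), a difference smaller than either SD. Exons of Gclm share 296 bases with Gm17494 on the opposite strand and 244 with Gm6061 on the same strand, out of 6291. The Gclm window held 1 ARE core, on the minus strand from 134 bases before the start, shown here with its surroundings (chr3:122245412-122245441).
Gclm: cgctcccgggcGCACCGTCAactctcacga

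Gsr (ENSMUSG00000031584, chromosome 8, 33652523 to 33698163, plus strand) encodes glutathione reductase, which turns oxidized glutathione back into its reduced form with NADPH. It read 40.0, 44.5 and 47.8 FPKM in si-NC replicates 1 to 3, against 43.5, 52.9 and 46.9 FPKM in si-circRtn4 replicates 1 to 3. The groups overlapped, with means of 44.1 ± 3.96 and 47.8 ± 4.76 FPKM (SD, n = 3 each) and a log2 difference of 0.11 (standard error 0.10). Txnrd1, a reductase of the same flavoprotein family, was 1.23 to 1.54 times the level of Gsr in si-NC and 1.72 to 2.15 times in si-circRtn4 libraries.

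Hmox1 (ENSMUSG00000005413, chromosome 8, 75093621 to 75100589, plus strand), the inducible heme oxygenase that cleaves heme into biliverdin, iron and carbon monoxide, measured 21.6, 18.1 and 23.8 FPKM after si-NC and 38.7, 49.9 and 32.3 FPKM after si-circRtn4. The groups did not overlap, and the si-circRtn4 libraries were more spread than the si-NC libraries. The means were 21.2 ± 2.89 and 40.3 ± 8.92 FPKM (SD, n = 3 each), which is 1.91-fold and a log2 difference of 0.89 (standard error 0.16). Nqo1 (ENSMUSG00000003849, chromosome 8, 107388225 to 107403206, minus strand), which reduces quinones by a pair of electrons at once, was at 2.43, 1.74 and 1.70 FPKM and at 3.76, 5.96 and 2.97 FPKM. It was the least abundant of the 10 in both groups, and its groups lay apart by only a small gap between si-NC replicate 1 and si-circRtn4 replicate 3. Its means of 1.96 ± 0.410 and 4.23 ± 1.55 FPKM (SD, n = 3 each) differed 2.16-fold on 37 to 144 reads per library. The log2 difference of Nqo1 was 0.79 (standard error 0.21) with a pseudocount of 1 and 1.03 with one of 0.1.

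The fitted differences of both regulators were smaller than those of Srxn1, Hmox1, Nqo1 and Txnrd1. That of Nfe2l2 was above those of Gclc (0.30), Gclm (0.27), Gsr (0.11) and Prdx1 (0.08), and that of Keap1 was the smallest of the 10. Nfe2l2 (ENSMUSG00000015839, chromosome 2, 75675513 to 75704641, minus strand) read 11.6, 10.3 and 11.5 FPKM in si-NC replicates 1 to 3, against 15.8, 13.5 and 13.5 FPKM in si-circRtn4 replicates 1 to 3. Its groups lay apart, with means of 11.1 ± 0.719 and 14.3 ± 1.33 FPKM (SD, n = 3 each) and a log2 difference of 0.33 (standard error 0.09). Keap1 (ENSMUSG00000003308, chromosome 9, 21229730 to 21239361, minus strand), the adaptor that delivers NRF2 to a CUL3 ubiquitin ligase, was at 14.9, 13.6 and 12.6 FPKM and at 14.0, 14.0 and 13.6 FPKM. The si-circRtn4 values of Keap1 lay inside the range of the si-NC values. Its means were 13.7 ± 1.16 and 13.9 ± 0.224 FPKM (SD, n = 3 each), a log2 difference of 0.02 (standard error 0.08) that turned to -0.03 without si-NC replicate 3. Within a library the level of Nfe2l2 was 0.757 to 0.909 times that of Keap1 in si-NC and 0.960 to 1.13 times in si-circRtn4. Exons of Keap1 share 510 of 4693 bases with Gm16754 on the opposite strand, and whether the authors' counting used strand is not given in the sources used here. The window of Nfe2l2 held an ARE core from 240 bases before its start (chr2:75704884-75704913, minus strand).
Nfe2l2: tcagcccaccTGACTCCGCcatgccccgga
The windows of Nqo1 and Keap1 held neither motif. Windows were found for 7 of the 10 genes, and Gclc, Gsr and Hmox1 had none.

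**Figure D2:**
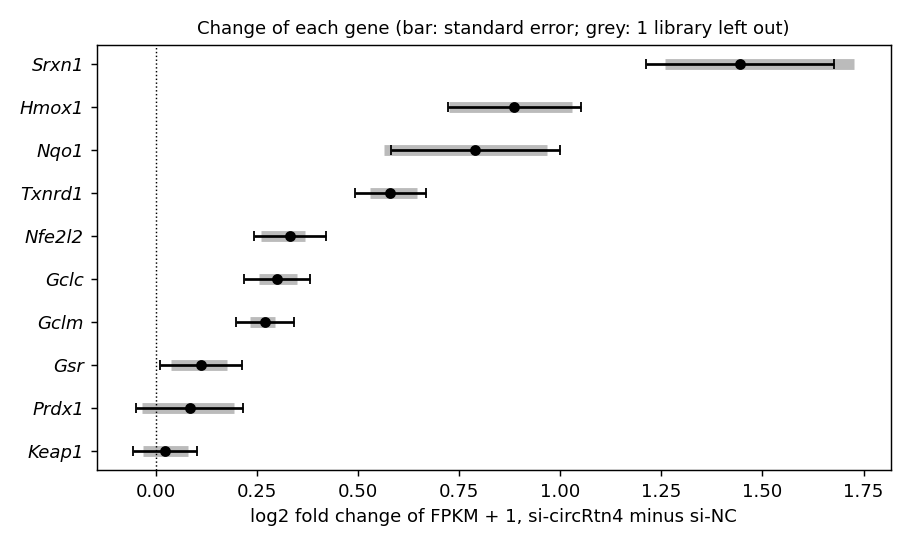
Difference in log2(FPKM + 1) between si-circRtn4 and si-NC libraries for each gene, as points with bars of 1 standard error from limma, and as grey bands the range when 1 library was left out at a time. Srxn1 lies furthest to the right at 1.45, and the bands of Prdx1 and Keap1 cross 0.

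Among si-NC libraries the order of mean FPKM was Prdx1, Txnrd1, Gsr, Gclc, Hmox1, Keap1, Srxn1, Gclm, Nfe2l2 and Nqo1. Neighbours whose ranges overlapped there were Prdx1 and Txnrd1, and each neighbouring pair from Keap1 to Nfe2l2. Among si-circRtn4 libraries the order was Txnrd1, Prdx1, Gsr, Hmox1, Srxn1, Gclc, Nfe2l2, Keap1, Gclm and Nqo1. Ranges there overlapped between neighbours from Gsr to Gclc and from Nfe2l2 to Gclm. Srxn1 thus moved from the ranges of Keap1 and Gclm in si-NC libraries into those of Hmox1 and Gclc in si-circRtn4 libraries. Within the si-circRtn4 group, replicate 3 was the lowest library for 7 of the 10 genes and replicate 2 the highest for 7.

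The study looked at circRtn4 as a sponge of miR-24-3p, so the 3′ UTRs of the 10 genes were searched for seed sites of both small RNAs. Reversing and complementing the listed siRNA gave the presumed guide strand of si-circRtn4, and capitals mark its seed and that of miR-24-3p from RefSeq (bases 2 to 8).
si-circRtn4 guide: aAAAGGGTctcatctgaag
mmu-miR-24-3p: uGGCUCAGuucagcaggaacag
In the longest annotated 3′ UTR of GENCODE M21, 0 of the 10 genes held the site of the guide seed (ACCCTTT), which 12.5% of 10666 tested genes with such a UTR held. The site of the miR-24-3p seed (CTGAGCC) was found once in Hmox1 and once in Keap1, against 19.6% of these genes. Both sites are shown with their surroundings, at bases 274 to 280 of 570 in the UTR of Hmox1 and 476 to 482 of 972 in that of Keap1.
Hmox1: aagcagctgttCTGAGCCcagtgcccatgg
Keap1: gcctctgggctCTGAGCCctgaacagttat
The other 8 genes held neither site.

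The other genes of the pathway were taken from 9 lists, and 68 of their 83 genes averaged 1 FPKM or more. Of these 68, 13 rose and 8 fell at a Benjamini-Hochberg adjusted p under 0.05 in limma, corrected over every gene tested, and 47 did not pass. Osgin1, among the 13, entered the test only through its si-circRtn4 libraries. Of all genes tested 4.36% rose and 4.82% fell. With replicate number as a block, 20 of the 68 rose and 11 fell, beside 1185 higher and 1243 lower of the 12749 genes tested. The additions were Prdx6, Gstp1, Ftl1, Tkt, Me1, Idh1 and Sod1 upwards and Rbx1, Gstm1 and Cbr1 downwards. The median log2 difference of the 68 genes was 0.12, against 0.00 for all 12749. The lists were written with earlier results of these data known, so the counts and the median are a description. With each library rescaled to the same FPKM sum, 71.2% of all calls were increases instead of 47.5%. With the short gene Gm23935 left out of that sum, 52.3% were increases. Of the 21 calls on the lists, 14, 8 and 13 were kept without si-NC replicate 1, 2 and 3, and 11, 11 and 17 without si-circRtn4 replicate 1, 2 and 3.

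**Figure D3:**
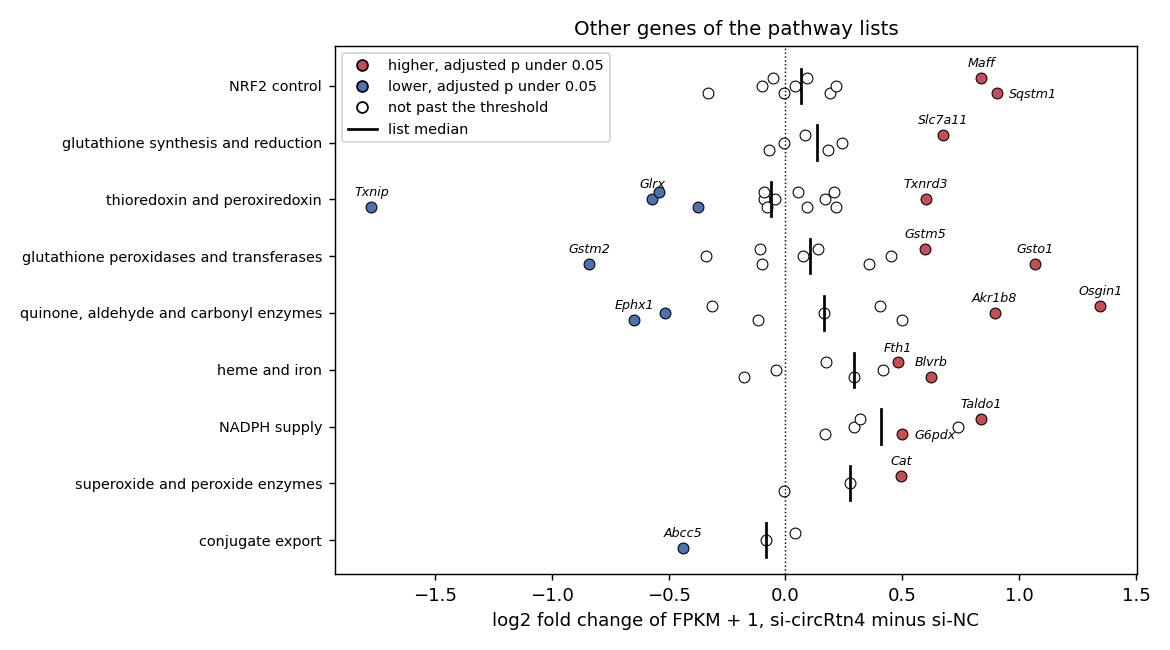
Difference in log2(FPKM + 1), si-circRtn4 minus si-NC, of the 68 tested pathway genes outside the group of 10, by list, with red and blue points for genes past an adjusted p of 0.05 upwards and downwards and a black line at each list's median. The 6 genes of NADPH supply all lie to the right of 0, and Txnip lies furthest to the left at -1.77.

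Among 10 further genes of NRF2 control, 2 rose and 0 fell. Sqstm1, which encodes p62, the autophagy receptor that binds KEAP1, averaged 184 ± 21.4 FPKM after si-NC and 345 ± 29.7 FPKM after si-circRtn4 (SD, n = 3 each), a log2 difference of 0.90 (limma, adjusted p = 0.00489, at most 0.0315 over the alternatives). Maff, a small MAF partner of NRF2, went from 9.41 ± 3.19 to 17.1 ± 1.63 FPKM (SD, n = 3 each; limma, adjusted p = 0.0393, up to 0.136 over the alternatives). The other small MAF genes Mafg and Mafk, the repressor gene Bach1 and the ligase genes Cul3 and Rbx1 did not pass, at log2 differences of -0.01, 0.22, 0.09, -0.05 and -0.33. Of these, Rbx1 was past the threshold as lower with replicate number as a block (limma, adjusted p = 0.0140).

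In the glutathione list, 1 of 6 tested genes rose and 0 fell. This was Slc7a11, the cystine importer that feeds glutathione synthesis, from 5.16 ± 1.10 to 8.75 ± 0.745 FPKM (SD, n = 3 each; limma, adjusted p = 0.0224, up to 0.0879 over the alternatives). Of 10 tested glutathione peroxidases and transferases, Gsto1 (log2 difference 1.07, adjusted p = 0.0111 from limma, up to 0.0554 over the alternatives) and Gstm5 (0.60, adjusted p = 0.0091) rose, whereas Gstm2 fell by 0.84 (adjusted p = 0.0106). Gstm2 and Gstm5 are paralogs of one glutathione transferase family on chromosome 3. Related sequences in such a family can share reads, which was not tested here.

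In the thioredoxin and peroxiredoxin list 4 of 14 tested genes fell and 1 rose. Txnip, which binds and inhibits thioredoxin, measured 25.9, 15.7 and 11.6 FPKM after si-NC and 4.19, 6.36 and 2.73 FPKM after si-circRtn4. Every si-circRtn4 library was below every si-NC library, although the si-NC values spread widely, and the log2 difference was -1.77 (standard error 0.32, adjusted p = 0.017 from limma, up to 0.0795 over the alternatives). Prdx3, the mitochondrial peroxiredoxin, went from 90.7 ± 2.53 to 62.2 ± 5.55 FPKM (SD, n = 3 each; limma, adjusted p = 0.0108, up to 0.0514 over the alternatives), and Prdx2, a cytosolic one, from 135 ± 4.67 to 104 ± 10.2 FPKM (SD, n = 3 each; limma, adjusted p = 0.0434, up to 0.14 over the alternatives). Both were named after their values were seen. Glutaredoxin Glrx fell by 0.57 (limma, adjusted p = 0.0236, up to 0.0864 over the alternatives) and Txnrd3, a thioredoxin reductase related to Txnrd1, rose by 0.60 (limma, adjusted p = 0.0108, at most 0.0467). Thioredoxin itself, Txn1, did not pass, at 175 and 205 FPKM on average.

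Of 9 tested quinone, aldehyde and carbonyl enzymes, 2 rose and 2 fell. Osgin1, an oxidative stress-induced growth inhibitor, rose by 1.35 (limma, adjusted p = 0.0331, up to 0.127 over the alternatives), from 0.914 ± 0.583 to 3.93 ± 1.59 FPKM (SD, n = 3 each). Its si-NC mean lay under 1 FPKM, so it passed the filter on the mean of 6 libraries only through its si-circRtn4 libraries. The call of Osgin1 thus depends on a filter tied to the comparison, and it was lost without that filter (limma, adjusted p = 0.127). The aldo-keto reductase gene Akr1b8 rose by 0.89 (adjusted p = 0.00283 from limma), while its relative Akr1b3, named after its values were seen, fell by 0.52 (adjusted p = 0.0213, up to 0.083). Ephx1, microsomal epoxide hydrolase, fell by 0.65 (limma, adjusted p = 0.0182, up to 0.0701 over the alternatives).

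Beside Hmox1, 2 of 7 tested heme and iron genes rose. Blvrb, a biliverdin reductase, went from 8.17 ± 1.35 to 13.01 ± 0.505 FPKM (SD, n = 3 each; limma, adjusted p = 0.0164, up to 0.0643 over the alternatives) and Fth1, the ferritin heavy chain that stores iron, from 424 ± 31.7 to 594 ± 75.6 FPKM (SD, n = 3 each; limma, adjusted p = 0.0435, up to 0.195 over the alternatives). Fth1 has processed pseudogenes that can share its reads. The constitutive heme oxygenase gene Hmox2 was at a log2 difference of -0.04 and did not pass.

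All 6 genes of NADPH supply, the cofactor of both reductases, were higher on average in si-circRtn4 libraries, and 2 passed the test. Taldo1, transaldolase of the pentose phosphate pathway, rose from 33.4 ± 3.96 to 60.2 ± 2.45 FPKM (SD, n = 3 each; limma, adjusted p = 0.00364, at most 0.0225 over the alternatives). G6pdx, glucose-6-phosphate dehydrogenase, rose from 36.8 ± 2.32 to 52.4 ± 2.42 FPKM (SD, n = 3 each; limma, adjusted p = 0.0108, up to 0.0513 over the alternatives). With replicate number as a block, 5 of the 6 passed, beside 1185 higher and 1243 lower of all 12749 genes tested. Of the 3 tested superoxide and peroxide enzymes, catalase (Cat) rose by 0.50 (limma, adjusted p = 0.0298, up to 0.0995 over the alternatives), and of the 3 tested exporters of conjugates Abcc5 fell by 0.44 (limma, adjusted p = 0.0246, up to 0.0935). Of the 21 calls on the lists, 6 kept an adjusted p under 0.05 in limma in all 13 alternatives, namely Sqstm1, Txnrd3, Gstm2, Gstm5, Akr1b8 and Taldo1. How many of all genes tested did so was not counted, so nothing is read from this count.

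The 5 protein-coding genes outside the group whose profile over the 6 libraries was most like that of Srxn1 were Osgin1, Rhov, Mfge8, Rps27rt and Sptb. Likeness was the root mean square difference of centred log2(FPKM + 1), which was 0.21 for Osgin1 and up to 0.27 for Sptb. With a pseudocount of 0.1 the log2 difference between the groups was 1.51 for Srxn1, but 2.04 for Osgin1 and 2.61 for Sptb. For Rhov, Mfge8 and Rps27rt it was 1.23, 1.32 and 1.60. Osgin1 and Sptb, the lowest of these genes, were thus less like Srxn1 in the size of their change with that smaller pseudocount. Osgin1 read 1.59, 0.622 and 0.534 FPKM in si-NC replicates 1 to 3, against 5.05, 4.64 and 2.11 FPKM in si-circRtn4 replicates 1 to 3. Like Srxn1 it was lowest in replicate 3 of each group. Rhov was at 2.73 to 3.58 and 4.604 to 9.54 FPKM, Mfge8 at 2.24 to 3.20 and 5.57 to 7.49 FPKM, and Sptb at 0.246 to 0.371 and 1.999 to 3.07 FPKM. Rps27rt, a retrogene that can share reads with its parent gene, was at 85.2 to 162 and 193 to 521 FPKM. These genes were picked for their profile, so that no test is given for the likeness. Osgin1 and Sptb, with si-NC means under 1 FPKM, passed the filter only through their si-circRtn4 libraries.

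**Figure D4:**
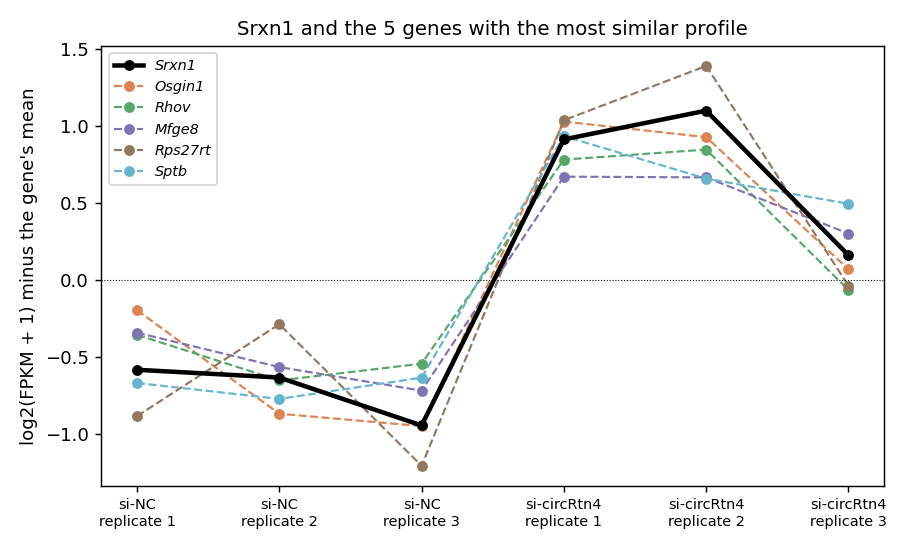
Level of Srxn1 (black) and of the 5 genes with the most similar profile in each library, as log2(FPKM + 1) minus the mean of the gene over 6 libraries. All 6 genes lie below 0 in the si-NC libraries, and in the si-circRtn4 group replicate 3 is the lowest for each.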

How the data were processed

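RNA sequencing libraries of N2a cells, 3 labelled si-NC and 3 labelled si-circRtn4, were grouped by their sample titles, which match the table's column names. The 6 columns of other samples in the table were not used. The authors deposited FPKM per gene with gene lengths. The submitters' processing notes name Bowtie 0.12.2, mm8 and mm9, but 98.3% of the 54532 genes have the coordinates of GENCODE M21 (GRCm38). The counting tool is not given in the sources used here. FPKM times gene length gave whole multiples of 1 step (within 0.01) for 100% of values in each library, from which reads were recovered.

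Values of log2(FPKM + 1) entered limma 3.58.1 (R 4.3.3, eBayes with a mean-variance trend) for 12749 genes averaging 1 FPKM or more, with Benjamini-Hochberg adjustment over all of them. The pseudocount of 1 understates changes of low genes. The fit was tested on simulated data. The 10 genes, the lists and the tests were chosen with earlier results of these data known. Named were these 10, of each list the 3 genes with the largest change among those at an adjusted p under 0.05, the 5 genes most like Srxn1, and Rtn4. Mafg, Mafk, Bach1, Cul3, Rbx1, Txn1, Hmox2, Prdx2, Prdx3, Akr1b3 and the genes past the threshold in the block alone lie outside that rule and were named after their values were seen. Alternatives were a pseudocount of 0.1, no filter, TPM with and without the short gene Gm23935, quantile normalization, limma-voom on recovered reads, replicate number as a block, and leaving out each library. Replicate numbers are shared between the groups and were treated as pairs in the block, because libraries of equal number shared deviations from their group means (r = 0.331, 0.190 and 0.226). For unequal numbers r was at most 0.00913. Deviations within a group sum to 0, so positive r at equal numbers pushes r at unequal numbers down. The low r at unequal numbers is therefore no separate sign of pairing. The labels do not say what the numbers share. Promoter windows are those of RefSeq on GRCm38.p6, and Python 3.11.15 was used for sequences and figures. The values of some neuroblastoma markers are not reported here.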

Additional observations from a re-analysis of the deposited data

How the results depend on the processing

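Over all genes tested, limma placed 556 higher and 615 lower past an adjusted p of 0.05. Without a filter on low values these were 210 and 261, the higher pathway genes fell from 13 to 6, the lower ones from 8 to 2, and 1 of the 10 genes, Txnrd1, was past the threshold instead of 3. In TPM, 972 genes were higher and 393 lower, limma-voom on recovered reads gave 902 higher and 725 lower genes, and each put 7 of the 10 past the threshold. In TPM with Gm23935 left out of the sum, 591 genes were higher and 538 lower, with 3 of the 10 past the threshold. The replicate block gave 1185 higher and 1243 lower genes, with 20 higher pathway genes and 7 of the 10. Fits without 1 library had 163 to 407 higher genes, 217 to 419 lower genes, 6 to 12 higher and 2 to 6 lower pathway genes, and 2 to 4 of the 10, with the fewest calls over all genes without si-NC replicate 2. The cause of these shifts was not tested. Fits without 1 library had fewer libraries, and the fit without a filter tested 28442 genes. No named gene that had passed the threshold changed direction in any of the 13 alternatives. With 37 to 144 reads per library, Nqo1 has the least depth of the 10.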
